A study of Rattus norvegicus with 12 samples.

Results

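The enzymes described here build and cross-link collagen: the prolyl 4-hydroxylase subunits P4ha1, P4ha2 and P4hb, the lysyl hydroxylases Plod1, Plod2 and Plod3, and the lysyl oxidases Lox, Loxl1, Loxl2 and Loxl3. Each was taken as the gene record carrying that name, and as the record of highest mean where a name was used more than once. Of the 10 names, 8 were found among 22442 gene records, and all 8 were among the 11611 records that reached a mean of 1 FPKM (sequenced fragments scaled to transcript length and to the fragments of the library) and were tested. No record carried the name Loxl2 or Plod3, and these genes were not analysed here. Second records named Plod1 and Plod2 did not exceed 0.38 and 1.19 FPKM in any library and were not used.

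Poly(A) RNA was sequenced from fibroblast-like synoviocytes (FLS), passaged cells grown from the synovium of male Sprague Dawley rats with adjuvant arthritis (AA), which is induced with complete Freund's adjuvant. All 4 groups of 3 libraries came from such cells, so no library of healthy FLS stood beside them. The FCA group was kept in plain DMEM. The others received the bile acid taurochenodeoxycholic acid (TCDCA) for 12 h, AT10 at 10 µM (1e-05 M), AT1 at 1 µM (1e-06 M) and AT01 at 0.1 µM (1e-07 M). Replicate numbers stand for sets of repeated experiments in the study. The sources used here give no age of the rats and do not say whether these sets came from separate animals or cultures, so the p-values measure only the spread between these libraries, which may be technical.

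Newly made procollagen chains are hydroxylated in the endoplasmic reticulum, where hydroxyproline stabilises the triple helix and hydroxylysine prepares the chain for sugar attachment and for stronger cross-links. After secretion, lysyl oxidases, which need copper, convert lysine and hydroxylysine residues to aldehydes that join collagen and elastin molecules into fibres. FLS make much of the matrix of the synovial lining, and the hydroxylases depend on oxygen, iron, ascorbate and 2-oxoglutarate.

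Promoter sequences are shown for Plod2 and P4ha2, because these are the hydroxylase genes whose AT1 libraries all lay beyond the FCA libraries, in opposite directions. Each promoter also holds ACGTG or its reverse complement, and ACGTG is one form of the hypoxia response element core. The form GCGTG was not searched and is not marked. They were chosen after these values were seen. The sequences are the 250 bases before the transcription start in RefSeq on the rat build GRCr8, Plod2 at chr8:101964068-101964317 and P4ha2 at chr10:38743644-38743893, both on the plus strand and 5′ to 3′. The capitals mark ACGTG or its reverse complement CACGT, and both strands were searched.
Plod2: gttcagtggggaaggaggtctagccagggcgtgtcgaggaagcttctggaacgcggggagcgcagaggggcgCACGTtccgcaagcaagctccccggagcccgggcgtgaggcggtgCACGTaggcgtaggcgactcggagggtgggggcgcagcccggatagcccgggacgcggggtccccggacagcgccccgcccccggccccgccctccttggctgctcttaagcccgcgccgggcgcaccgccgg
P4ha2: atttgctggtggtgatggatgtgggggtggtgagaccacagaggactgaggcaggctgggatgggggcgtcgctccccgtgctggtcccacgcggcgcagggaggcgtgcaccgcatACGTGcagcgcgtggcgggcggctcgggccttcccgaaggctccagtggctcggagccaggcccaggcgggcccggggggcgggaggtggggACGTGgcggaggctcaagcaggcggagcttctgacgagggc
RefSeq held a promoter entry for 8 of the 10 names, all but Lox and Loxl2. ACGTG or CACGT stood in 2 of these 8, at -178 and -133 in Plod2 and at -133 and -41 in P4ha2, counted from the start. It stood in 16.6% of 33469 rat promoters of the same length. TATAAA or its reverse complement TTTATA stood in 0 of the 8 and in 12.9% of all. These are matches of letters, and binding was not measured.

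Summed FPKM ranged from 284210 to 309696 over the libraries, with 17736 to 18505 records above 0. Library depth differed, and the number of reads behind a single value is unknown, so no counting interval is given. Of 10 fibroblast markers, 9 had a record and all 9 reached a mean of 1 FPKM, among them Vim, Thy1, Pdgfrb, Prg4 and Fap. Their summed FPKM was between 6492 and 6964 in FCA, 6336 and 7197 in AT01, 6116 and 6956 in AT1, and 5312 and 6069 in AT10, where it lay below every FCA library. S100a4 and Vim, with means of 3376 and 2658 FPKM, made up most of these sums. In AT10 against FCA the log2 fold change was below 0 for 8 of the 9 markers (51.7% of the records tested). For Fap it was 0.28, and 9 of 9 TCDCA libraries of Fap lay above every FCA library. Smooth muscle and myofibroblast markers summed to between 311 and 416 FPKM in FCA and between 161 and 309 in the 9 TCDCA libraries, below every FCA library. Most of this sum was Acta2, at 263 to 370 FPKM in FCA and 125 to 255.5 in TCDCA (log2 fold change -0.54). The other markers tested lay near 0 in TCDCA against FCA, with log2 fold changes of 0.02 for Cnn1, -0.02 for Myh11, 0.05 for Des and -0.01 for Lmod1. Endothelial markers summed to at most 0.21 FPKM with Tie1 listed at 0 in every library. Of 11 macrophage markers, 6 had a record and Cd14 and Cd68 alone reached a mean of 1 FPKM, with sums between 5.71 and 21.9. Adipocyte markers summed to between 35.6 and 52.6 FPKM, mostly Fabp4, and chondrocyte markers to between 4.73 and 10.1. In bulk RNA, fewer cells of a type and less RNA per cell cannot be told apart, and the part of the AT10 fibroblast sum and of the smooth muscle sum in the differences given here was not tested.

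By mean FPKM the 8 genes ranked between 50 and 1582 among the 11611 records tested. P4hb, which encodes protein disulfide isomerase and serves as the beta subunit of prolyl 4-hydroxylase beside its work on other secreted proteins, averaged 625 FPKM over the 12 libraries and ranked 50. Plod2 followed at 205 FPKM (rank 199), then P4ha2 at 87.5, Loxl3 at 80.5, Lox at 75.2, P4ha1 at 68.7, Plod1 at 57.1 and Loxl1 at 32.3 (rank 1582). P4hb exceeded Plod2, Plod2 exceeded P4ha2, and Plod1 exceeded Loxl1 in 12 of 12 libraries. P4ha2 exceeded Loxl3 in 10 of 12, with FCA ranges that did not meet. The next neighbours could not be ordered in the FCA group, where the ranges of Loxl3 and Lox, of Lox and P4ha1, and of P4ha1 and Plod1 overlapped. Lox stood above P4ha1 in 3 of 12 libraries, and its median was 47.1 FPKM against a mean of 75.2.

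**Figure D1:**
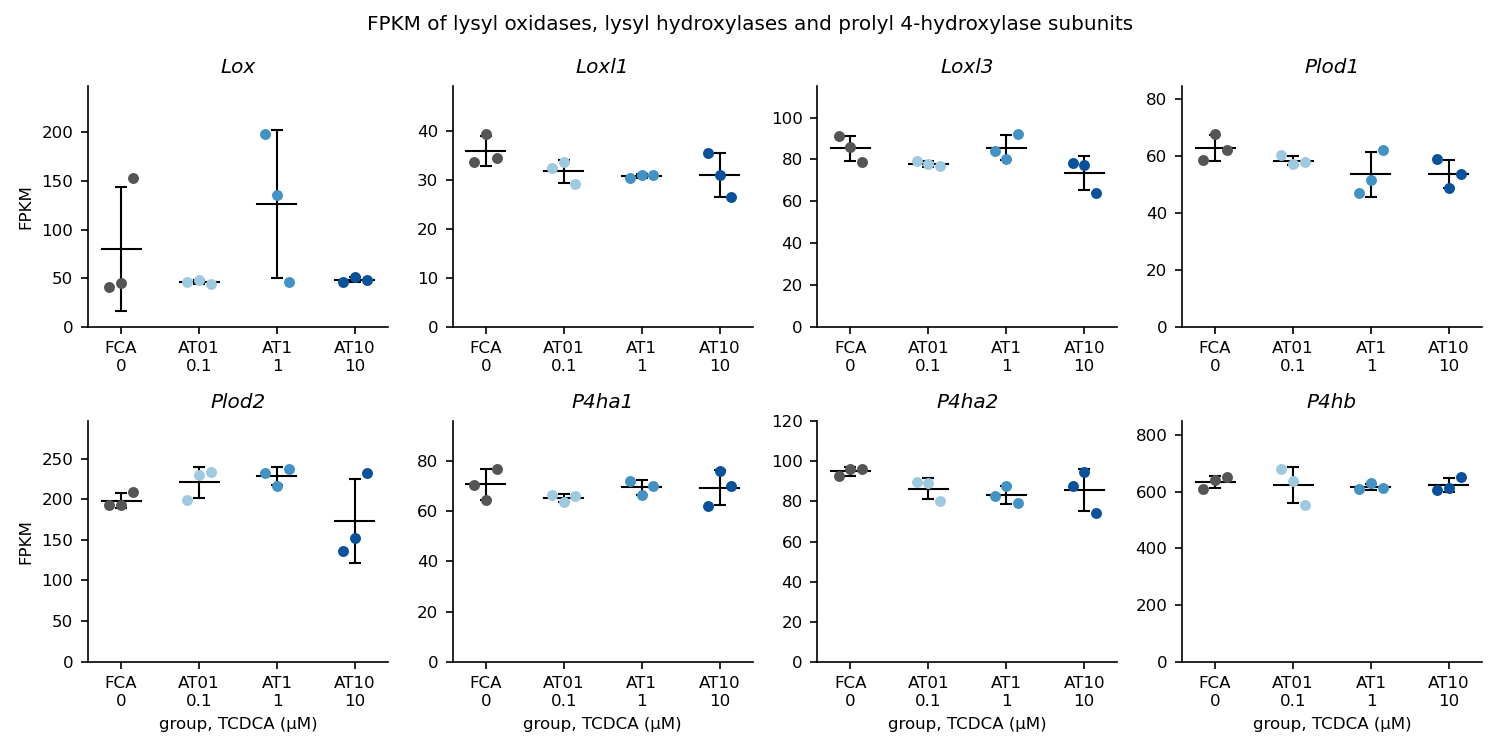
FPKM of the 8 genes in each library (points) with the mean and SD of the 3 libraries of a group (line and bars), by group and TCDCA concentration in µM. P4hb stayed between 553 and 681 FPKM in every library, Plod2 was low in 2 of the 3 AT10 libraries, and Lox stood at 135 FPKM or more in 3 libraries and at 50.7 or less in the other 9.

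No difference between groups passed the adjusted test for any of the 8 genes. A gene was called where limma on log2(FPKM + 1) gave a p under 0.05 after Benjamini-Hochberg adjustment across the 11611 records tested, which are meant by all records below. Against FCA, 0 of 8 were called in AT10 (0.172% of all records tested), AT1 (0.0947%) and AT01 (0.0947%), and in the 3 doses as 1 group (0.0258%). Between doses, 0 of 8 were called for AT10 and AT1 (0.258%), AT10 and AT01 (0.0689%), and AT1 and AT01 (0.129%). The F test of limma over the 4 groups called 0 of 8 as well (0.0431%), with the lowest adjusted p of 0.613 for Loxl3 and Plod2. An unmoderated F test in the manner of Ballgown also called 0 of 8 in each comparison. Of the 11611 records it called 1 for the 3 doses as 1 group and 8 over the 4 groups. Its number over all records was not recorded for the pairs of groups. At an unadjusted limma p under 0.05 against FCA, 0 of 8 were found in AT10 (11.9% of all records), 3 in AT1 (11%), 0 in AT01 (6.6%) and 2 in the 3 doses as 1 group (12%). Those of AT1 were Loxl1, Plod2 and P4ha2, and those of the pooled doses were Loxl1 and P4ha2. The 3 of AT1 became 0 without AT1 replicate 1 and 1 without AT1 replicate 3. They became 2 without AT1 replicate 2 or any 1 of the FCA replicates. The 2 of the pooled doses became 0 without FCA replicate 2 and 1 without FCA replicate 3, AT1 replicate 1 or AT01 replicate 3. They became 3 without AT01 replicate 1. In AT10 the 0 became 2 without AT10 replicate 1 and 1 without AT10 replicate 3, and in AT01 it became 1 without AT01 replicate 1. Under the criterion of the study, which asks in addition for a log2 fold change over 1 or under -1, 0 of 8 were found in AT10 (0.706%), AT1 (0.62%) and AT01 (0.758%). The libraries of the compared groups did not overlap for 1 of 8 genes between AT10 and FCA (19.9% of all records), 3 between AT1 and FCA (19.9%), 2 between AT01 and FCA (14%), and 0 between all TCDCA and FCA libraries (2.86%). Between doses this held for 1 gene in AT10 and AT1 (13.9%), 0 in AT10 and AT01 (11.1%) and 2 in AT1 and AT01 (8.6%). Each of these genes is given with its values in the account of its family. The AT10, AT1 and AT01 comparisons share the FCA libraries, so a low or high FCA library enters all of them.

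Most differences from FCA were below 0, and none passed the test. The log2 fold change was below 0 for 8 of 8 genes in AT10 (51.7% of all records), 5 of 8 in AT1 (46.7%), 7 of 8 in AT01 (49.6%) and 7 of 8 over the 9 TCDCA libraries (49.3%). For AT10 the median over the 8 genes was -0.21, beside -0.01 over all records tested. For AT1 it was -0.03 beside 0.02, and for AT01 it was -0.12 beside 0.00. An exact permutation test, two-sided and on the same log2 scale, stands beside some values. The smallest p it can give is 0.1 for groups of 3 and 0.00455 for 9 libraries set against 3.

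**Figure D2:**
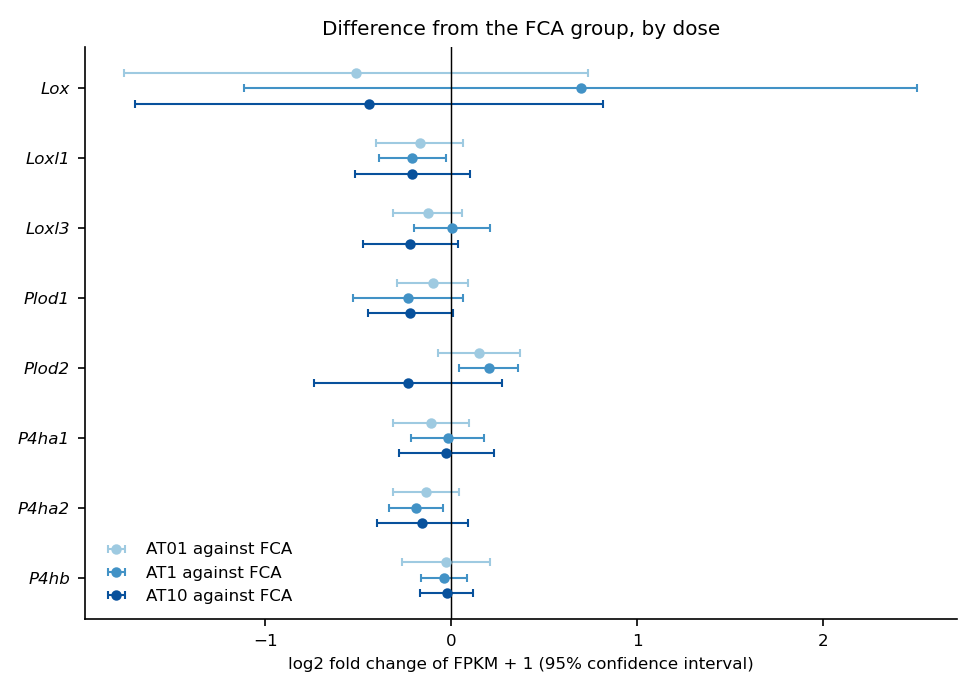
Log2 fold change of FPKM + 1 against the FCA group for the 8 genes, with 95% confidence intervals from limma, for AT01, AT1 and AT10 (3 libraries a group). The intervals of Loxl1, Plod2 and P4ha2 in AT1 leave out 0 before adjustment over all records, and those of Lox run beyond 1 on the log2 scale in at least one direction in every group.

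The prolyl 4-hydroxylase subunits varied little. P4hb stood at 611, 640.5 and 653 FPKM in the FCA libraries, 681, 639 and 553 in AT01, 610.4, 631 and 614 in AT1, and 605, 614 and 653 in AT10. All 4 groups overlapped, and the group means were 635 ± 21.4 (SD, n = 3) in FCA, 624 ± 65.0 in AT01, 618 ± 10.8 in AT1 and 624 ± 25.6 in AT10. The log2 fold change over the 9 TCDCA libraries was -0.03, with a 95% interval from -0.16 to 0.09 and a limma adjusted p of 0.845.

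P4ha1, a catalytic alpha subunit, stood at 70.6, 64.5 and 76.8 FPKM in FCA, 66.3, 63.5 and 66.2 in AT01, 72.1, 66.3 and 70.2 in AT1, and 62.2, 76.0 and 70.2 in AT10. Its groups overlapped in every comparison with FCA, with a log2 fold change over the TCDCA libraries of -0.05 (95% interval -0.20 to 0.10), which became 0.010 without FCA replicate 3. The AT1 libraries of P4ha1 lay just above all AT01 libraries, by 0.09 on the log2 scale (95% interval -0.07 to 0.25). That interval includes 0, and the gap between the groups was under 0.1 FPKM.

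P4ha2, another alpha subunit, had the FCA group of smallest SD relative to its mean. It stood at 92.5, 96.2 and 96.2 FPKM in FCA, 89.8, 89.1 and 80.5 in AT01, 82.7, 87.7 and 79.0 in AT1, and 87.6, 94.9 and 74.2 in AT10. The AT01 and AT1 libraries and 2 of 3 AT10 libraries, 8 of 9 in all, lay below every FCA library. The log2 fold change was -0.19 in AT1 (SE 0.058, exact permutation p = 0.1, limma adjusted p = 0.428) and -0.16 over the 9 TCDCA libraries (SE 0.069, exact permutation p = 0.0318, limma adjusted p = 0.389). The difference in means, 95.0 ± 2.12 FPKM in FCA against 83.1 ± 4.39 in AT1 (SD, n = 3), was larger than either SD but did not pass the test over all records. P4hb stood at 3.59 to 4.52 times the sum of P4ha1 and P4ha2 in FPKM, median 4.01, and P4ha2 at 1.06 to 1.49 times P4ha1.

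Of the lysyl hydroxylases, Plod2, which acts on the lysines of the collagen telopeptides, was highest in AT1 by mean and lowest in AT10. It stood at 193, 193 and 209 FPKM in FCA, 199, 229.7 and 234 in AT01, 232, 216 and 237 in AT1, and 136, 152 and 232 in AT10. All 3 AT1 libraries and 2 of 3 AT01 libraries lay above every FCA library, whereas AT10 replicates 1 and 2 lay below all other libraries and AT10 replicate 3 lay among the AT1 libraries. Against FCA the log2 fold change of Plod2 was 0.20 in AT1 (95% interval 0.04 to 0.36, exact permutation p = 0.1, limma adjusted p = 0.428), 0.15 in AT01 (adjusted p = 0.785) and -0.23 in AT10 (adjusted p = 0.657). Between the doses it was -0.43 in AT10 against AT1 (SE 0.205, exact permutation p = 0.3, limma adjusted p = 0.748) and -0.38 in AT10 against AT01 (adjusted p = 0.867). Neither passed the test, and the AT10 libraries were the most spread, at 173 ± 51.7 FPKM (SD, n = 3).

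Plod1, which hydroxylates lysines of the collagen helix, stood at 58.5, 67.6 and 62.1 FPKM in FCA, 60.2, 57.0 and 57.8 in AT01, 47.0, 51.3 and 62.0 in AT1, and 58.8, 48.9 and 53.6 in AT10. Of the 9 TCDCA libraries, 6 lay below every FCA library, 2 in each group, and none lay above them. For Plod1 the log2 fold change over the TCDCA libraries was -0.18 (SE 0.087, exact permutation p = 0.0636, limma adjusted p = 0.426). Plod2 stood at 2.31 times Plod1 in AT10 replicate 1, the lowest ratio, and at 4.94 times in AT1 replicate 1, the highest.

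Of the lysyl oxidases, Lox, the founding enzyme of the family, was found at 2 separate levels. It stood at 41.3, 45.3 and 153 FPKM in FCA, 46.6, 47.7 and 44.1 in AT01, 198, 135 and 46.5 in AT1, and 46.0, 50.7 and 48.4 in AT10. FCA replicate 3 and AT1 replicates 1 and 2 were high, with a mean of 162 FPKM, and the other 9 libraries were low, with a mean of 46.3, so that the higher level was 3.50 times the lower. The split ran through the FCA and AT1 groups rather than between groups, and the group means of 79.9 ± 63.5 FPKM in FCA and 127 ± 76.1 in AT1 (SD, n = 3) describe neither level. Lox had a log2 fold change against FCA of -0.44 in AT10 (limma adjusted p = 0.726), 0.70 in AT1 (adjusted p = 0.702), -0.51 in AT01 (adjusted p = 0.830) and -1.14 in AT10 against AT1 (SE 0.523, exact permutation p = 0.3, limma adjusted p = 0.748). Over the 9 TCDCA libraries it was -0.09, and 0.52 without FCA replicate 3. The residual SD of Lox on the log2 scale was 0.749, against 0.086 for P4hb, 0.219 for Plod2 and a median of 0.169 over all records.

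Records with 2 levels were defined, after some had been seen, by their sorted log2 values: the widest gap had to measure 1 or more, exceed the spread within both levels, and part the libraries so that neither side held fewer than 2. By this definition, 525 records (4.52%) had 2 levels, and Dph3, a gene of diphthamide synthesis, was the one other record split into the same libraries as Lox. Dph3 stood at 12.1, 12.4 and 12.2 FPKM in the libraries where Lox was high and between 2.41 and 4.46 in the others. The named record most like Lox over the libraries was Ywhaq, a 14-3-3 protein, with Pearson's r = 0.986 (n = 12 libraries, a description) and levels of 115 to 129.5 FPKM against 72.8 to 79.1. The Lox record joins 4 transcripts, and which of them carried the difference cannot be read from gene values. Dph3 and Ywhaq are named because they follow Lox, and no function shared with it was tested.

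**Figure D3:**
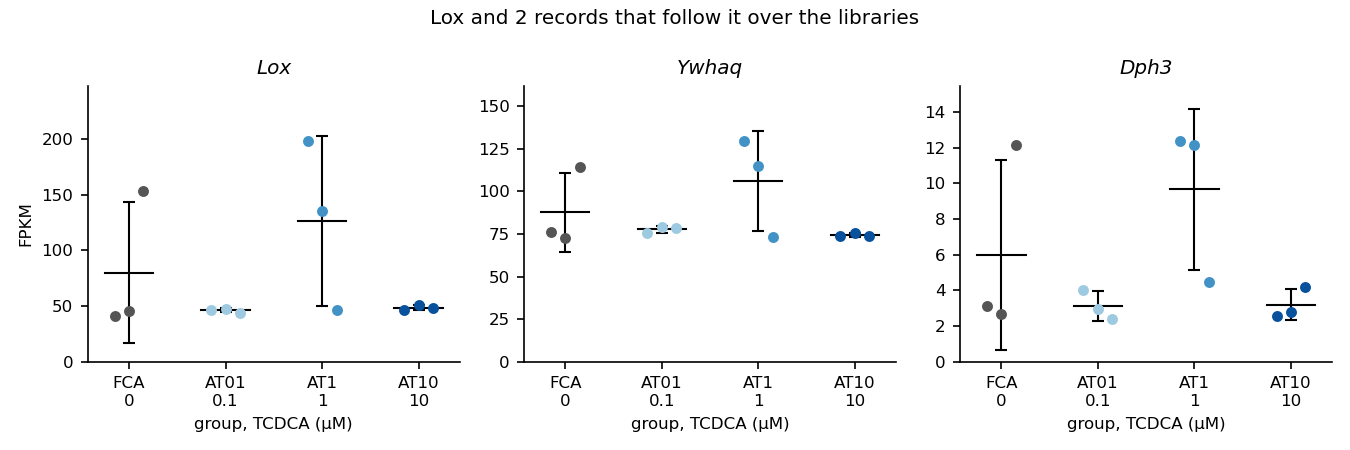
FPKM of Lox, Ywhaq and Dph3 in each library (points) with the group mean and SD (line and bars, n = 3), by group and TCDCA concentration in µM. FCA replicate 3 and AT1 replicates 1 and 2 are high in all 3 panels, at 135 FPKM or more for Lox against 50.7 or less elsewhere.

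Loxl1, which is best known for its part in elastic fibres, had the lowest level of the 3 lysyl oxidases described here. It stood at 33.7, 39.3 and 34.4 FPKM in FCA, 32.3, 33.6 and 29.1 in AT01, 30.4, 30.9 and 31.0 in AT1, and 35.5, 30.9 and 26.4 in AT10. All AT01 and AT1 libraries and 2 of 3 AT10 libraries, 8 of 9 in all, lay below every FCA library, with AT01 replicate 2 below the lowest of them by less than 0.1 FPKM. Loxl1 had a log2 fold change against FCA of -0.17 in AT01, -0.21 in AT1 (SE 0.073, exact permutation p = 0.1, limma adjusted p = 0.428), -0.21 in AT10 and -0.20 over the 9 TCDCA libraries (SE 0.080, exact permutation p = 0.0364, limma adjusted p = 0.374). The last value was -0.13 without FCA replicate 2, the highest library.

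Loxl3, a lysyl oxidase with scavenger receptor domains, stood at 91.2, 85.7 and 79.0 FPKM in FCA, 79.3, 77.7 and 76.7 in AT01, 84.2, 80.3 and 92.1 in AT1, and 78.5, 77.5 and 63.9 in AT10. All AT10 libraries lay below all FCA and all AT1 libraries, the nearest FCA library by under 1 FPKM, and the AT1 and FCA libraries overlapped. The AT1 libraries also lay above all AT01 libraries, by 0.13 on the log2 scale (95% interval -0.05 to 0.31). Relative to FCA, Loxl3 differed by -0.22 on the log2 scale in AT10 (95% interval -0.48 to 0.04, exact permutation p = 0.1, limma adjusted p = 0.461), 0.00 in AT1 and -0.13 in AT01. Without AT10 replicate 3, the lowest library, the AT10 difference was -0.13. Loxl3 held between 26.9% and 54.9% of the FPKM of the 3 lysyl oxidases, median 49.0%, and the lowest shares were those of the 3 libraries where Lox was high.

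Over the 12 libraries, Loxl1 varied most closely with P4ha2 among the 8 genes (r = 0.784), then with Plod1 (r = 0.611) and Loxl3 (r = 0.534), and the lowest value was -0.519 for Plod2 and P4ha2. These are descriptions over 12 libraries that share groups and culture conditions. The named records most like each gene were Gnas for Loxl1 (r = 0.943), Sgms1 for Loxl3 (r = 0.917), Pitpnm1 for Plod1 (r = 0.864), Csgalnact1 for Plod2 (r = 0.953), Strn for P4ha1 (r = 0.819), Ambra1 for P4ha2 (r = 0.908) and Fabp5 for P4hb (r = 0.949), each the highest of all tested records and so high in part by selection.

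The substrates of these enzymes had a lower median in TCDCA than the enzymes themselves. Of 15 collagen and elastin genes listed, 12 were tested, and in TCDCA against FCA 0 were called by limma at an adjusted p under 0.05, 6 were lower and 0 higher at an unadjusted p under 0.05 (6.15% of all records were lower), and the median log2 fold change was -0.27 beside 0.00 over all records and -0.10 over the 8 enzymes. Col5a3, a chain of collagen V, stood between 8.16 and 8.89 FPKM in FCA and between 5.19 and 7.10 in the 9 TCDCA libraries (log2 fold change -0.38, SE 0.085, exact permutation p = 0.00455, limma adjusted p = 0.241). Col6a1, a chain of collagen VI, stood between 57.3 and 58.2 FPKM in FCA and between 38.5 and 52.8 in TCDCA (log2 fold change -0.30, SE 0.077, exact permutation p = 0.00455, limma adjusted p = 0.268). For both genes 9 of 9 TCDCA libraries lay below every FCA library. Whether the substrates differed more than the enzymes was not tested.

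Among the partners that act on procollagen in the endoplasmic reticulum, of 15 listed, 12 were tested in TCDCA against FCA and 0 were called by limma. At an unadjusted p under 0.05, 2 were lower and 0 higher (12% of all records in either direction, 6.15% lower). The median log2 fold change was -0.06. P3h1, which hydroxylates a proline at another position than prolyl 4-hydroxylase does, stood at 62.5, 69.2 and 66.7 FPKM in FCA and at 43.9, 41.3 and 51.2 in AT10, and 8 of 9 TCDCA libraries lay below every FCA library (log2 fold change -0.38, SE 0.136, exact permutation p = 0.0273, limma adjusted p = 0.346). Kdelr2, a receptor that returns proteins to the endoplasmic reticulum, lay below FCA in 9 of 9 TCDCA libraries by a small step (log2 fold change -0.12, SE 0.052, exact permutation p = 0.0273, limma adjusted p = 0.394).

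Of 18 genes that process procollagen or organise fibres outside the cell, 14 were tested in TCDCA against FCA, with 0 called by limma. At an unadjusted p under 0.05, 1 was lower and 3 were higher (12% of all records in either direction, 6.15% lower). The median log2 fold change was -0.06. Lum, which encodes lumican, a proteoglycan that binds collagen fibrils, stood between 595 and 625 FPKM in FCA and between 695 and 906 in TCDCA, above FCA in 9 of 9 libraries (log2 fold change 0.30, SE 0.074, exact permutation p = 0.00455, limma adjusted p = 0.257). Dcn, which encodes decorin, lay above FCA in 7 of 9 (log2 fold change 0.17, SE 0.056, exact permutation p = 0.0136, limma adjusted p = 0.319). The others, named after their values were seen, were the procollagen protease Tll1 (log2 fold change 0.24) and the proteoglycan Bgn (log2 fold change -0.13).

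**Figure D4:**
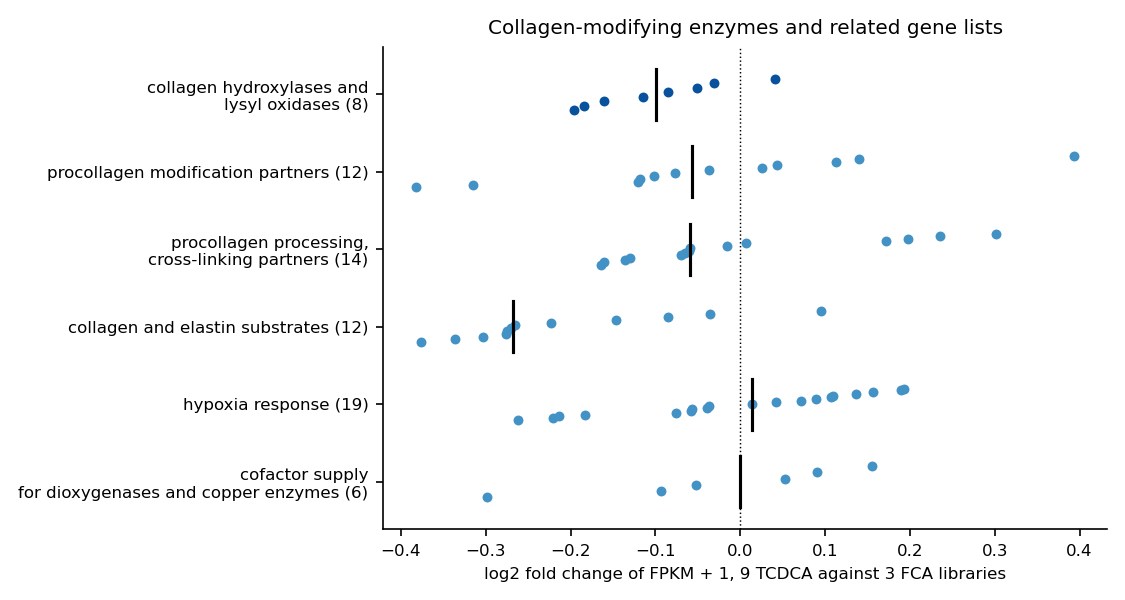
Log2 fold change of FPKM + 1 over 9 TCDCA against 3 FCA libraries, 1 point for each gene tested, with a vertical line at the median of each list and the number of genes in brackets. The 8 collagen hydroxylases and lysyl oxidases have a median of -0.10, the collagen and elastin substrates one of -0.27, and the other lists lie between -0.06 and 0.01.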

How the data were processed

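The authors trimmed the reads with cutadapt, aligned them with HISAT2, and assembled and quantified transcripts with StringTie and Ballgown. They deposited FPKM to 2 decimals for 22442 gene records in 12 libraries. The genome build, library scaling and strand setting are not given in the sources used here, which also disagree on the sequencer, so no coordinates are given for records. The study lists the valid reads of each library, and depth differed between libraries, but the reads behind a single FPKM value were not given.

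Values were taken as log2(FPKM + 1). Records averaging 1 FPKM or more, 11611 in number, were tested with limma 3.58.1 (lmFit and eBayes with a variance trend) in R 4.3.3, in separate fits for each pair of groups, in a fit of 9 TCDCA and 3 FCA libraries, and by an F test over 4 groups. Python 3.11.15, SciPy 1.17.1 and Matplotlib 3.10.9 served the sequence searches and figures. Of each list, the 2 genes of smallest unadjusted p in TCDCA against FCA were named, and for each enzyme the record of highest r. The enzymes and lists were chosen with earlier results of these data known. No 2 libraries were duplicates. The tests were tried on simulated data. Alternatives were another pseudocount, filter, fit, test and scaling, sums by gene name, a replicate block and each library left out. Loxl2, Plod3 and the promoter of Lox are not analysed here.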

Additional observations from a re-analysis of the deposited data

How the results depend on the processing

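The number of the 8 enzymes called at an adjusted p under 0.05 was 0 in all 8 tests in all 123 refits under the alternatives. Few records of any kind were called in a refit, between 0 and 50 of 4362 to 21956 tested, where that number was recorded. The lowest limma adjusted p of an enzyme was 0.0572, for AT10 against AT1 without AT1 replicate 3, and the enzyme that gave it was not recorded. Without that library, AT1 held only replicates 1 and 2, where Lox was high at 198 and 135 FPKM. Of the counts at an unadjusted p under 0.05, 22 moved by over 1.5 times, or from or to 0. Among them, with 1 fit over all 12 libraries, AT1 against FCA went from 3 to 0 and TCDCA against FCA from 2 to 1. Of the log2 fold changes recomputed, 214 kept their direction and 2 did not. In TCDCA against FCA, Lox ranged from -0.42 to 0.52 and P4ha1 from -0.11 to 0.010 with 1 library left out, both above 0 without FCA replicate 3, which for Lox is the high FCA library. The same range was -0.24 to -0.13 for Loxl1, -0.18 to -0.14 for P4ha2 and -0.23 to -0.13 for Plod1. The number of substrates lower at an unadjusted p under 0.05 was 6 of 12 tested and stayed between 4 and 6. The 4 came from the filter at a mean of 10 FPKM, where 10 substrates were tested.

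Every group uses the same replicate numbers, which denote sets of repeated experiments with no word on shared cells or days, but libraries of the same number did not deviate together (18 pairs, r from -0.11 to 0.09, 0 over 0.1, and 4 of 12 libraries correlated best with their own number). With the replicate block, 0 of 8 enzymes were called in every test, with a lowest limma adjusted p of 0.321 in TCDCA against FCA. Of the 11611 records tested, the block called between 0 and 4 in each test. The study lists reads per library but the files hold no reads per gene, so counting error was not set beside the spread between libraries.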

Other observations

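The hypoxia response list was examined beside the enzymes because prolyl and lysyl hydroxylases are oxygen-dependent and several are hypoxia-inducible. Of 20 genes listed, 19 were tested, and in TCDCA against FCA 0 were called by limma at an adjusted p under 0.05. At an unadjusted p under 0.05, 0 were higher and 1 lower (12% of all records in either direction, 6.15% lower). The median log2 fold change was 0.01. The glycolytic enzyme Aldoa lay below FCA in 8 of 9 TCDCA libraries (log2 fold change -0.26, SE 0.089, exact permutation p = 0.0227, limma adjusted p = 0.339), and so did Eno1 (log2 fold change -0.18, SE 0.097, exact permutation p = 0.0864, limma adjusted p = 0.474). Bnip3, a mitophagy receptor, was the one gene of the list called in a comparison of single doses, and it is named here after its values were seen. It stood at 43.6, 41.4 and 41.2 FPKM in FCA, 24.4, 23.8 and 24.2 in AT01, 47.4, 42.2 and 43.5 in AT1, and 47.8, 50.2 and 33.8 in AT10. Bnip3 was lower in AT01 than in FCA (log2 fold change -0.78, SE 0.061, exact permutation p = 0.1, limma adjusted p = 0.0252) and higher in AT1 than in AT01 (log2 fold change 0.85, SE 0.069, exact permutation p = 0.1, limma adjusted p = 0.0267). Plod2 and P4ha2 in the same AT01 libraries were not called against FCA, where 0.0947% of all records were. Any link between them and Bnip3 was not tested.

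Of 9 genes that supply ascorbate, 2-oxoglutarate or copper, 6 were tested, with 0 called by limma in TCDCA against FCA. At an unadjusted p under 0.05 there were 0 (12% of all records), and the median log2 fold change was 0.00. Idh1, which makes 2-oxoglutarate in the cytosol, lay above FCA in 6 of 9 TCDCA libraries (log2 fold change 0.16, SE 0.073, exact permutation p = 0.0455, limma adjusted p = 0.422). The ascorbate transporter Slc23a2 stood between 25.1 and 29.6 FPKM in FCA and between 15.8 and 29.3 in TCDCA (log2 fold change -0.30, SE 0.188, exact permutation p = 0.191, limma adjusted p = 0.542).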
